A study of Mus musculus with 4 samples.

Results

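Il10-high noncycling cells are mouse splenic B cells, activated in culture, that carried at least 5 UMIs of Il10 and few transcripts of the cell cycle. A UMI (unique molecular identifier) marks 1 captured mRNA molecule. They were chosen by measured UMIs in the libraries numbered 7 and 8 by the barcode endings. Barcodes entered with 1000 genes or more and a mitochondrial share below 10%. Noncycling cells had under 5 UMIs of Jchain, the joining chain of secreted antibody, under 10 UMIs summed over the mitotic genes Mki67, Top2a, Birc5, Cenpf, Ube2c, Cdk1, Hmmr, and Tpx2, and under 0.1% of their UMIs on the replication genes Mcm2 to Mcm7 and Gins2. This gave 1811 Il10-high cells, 1067 in library 7 and 744 in library 8, of 7715 noncycling cells of these libraries, 18534 cells past the filters, and 19920 barcodes. They were compared with noncycling cells of the same library that had no Il10 UMI (Il10-0 cells) and were matched to them on total UMIs.

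The study cultured purified splenic B cells of WT mice for 3 days with CpG B ODN 1668, a ligand of TLR9 (Bregs-CpG, 2 samples), or added LPS, PMA, and ionomycin to such cultures for the last 5 hours (Bregs-TLR, 2 samples). LPS is a ligand of TLR4, PMA activates protein kinase C, and ionomycin lets calcium into the cell. Every cell described here had therefore been exposed to CpG, and unstimulated B cells were not analysed here. No label or header ties a library number to a sample, so the libraries are given by number, the cells stand for 1 pooled sample, and no difference was tested. Each value is given for library 7 and for library 8. Intervals at 95% cover counting error only, not variation between mice or cultures. Those of UMI levels and their ratios count each UMI as independent. They thus leave out variation between cells and are too narrow for genes concentrated in few cells.

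IL-10 is a secreted cytokine that dampens inflammation, chiefly by acting on macrophages and dendritic cells through a receptor made of IL-10Rα and IL-10Rβ and the transcription factor STAT3. B cells that make it are one of the groups called regulatory B cells (Bregs). They have no single defining transcription factor, and marginal zone B cells, B-1 cells, and plasmablasts have all been described as sources. In B cells, Toll-like receptor ligands and calcium signals turn on the gene, and factors including IRF4, AP-1, and NFAT proteins are known to act on it.

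The markers of the cells fitted the label as B cells, and other cell types were close to absent. Cd74, the invariant chain of class II molecules, was at 6413 CPM (UMIs per 1000000 UMIs of the group) in matched Il10-high cells of library 7 and 6244 CPM in those of library 8, against 5830 and 5814 CPM in the Il10-0 cells. Cd79a, a signaling chain of the antigen receptor, was at 1095 and 1146 CPM against 951 and 960.3 CPM, and Ighm, the IgM heavy chain, at 1053 and 1208 CPM against 1134 and 1077 CPM. Ms4a1, which encodes CD20, was at 33.5 and 36.1 CPM against 32.9 and 47.1 CPM, and the B cell factor Pax5 at 58.4 and 55.7 CPM against 58.2 and 59.4 CPM. Of 9 T cell genes, Cd3e, Cd3g, Cd4, Cd8a, and Thy1 had no UMI in either group of either library, and the list summed to 10.4 and 11.0 CPM in Il10-high cells against 7.58 and 9.48 CPM, with Il7r leading in the Il10-high cells and Lck in the others. Of 10 myeloid genes, Lyz2, Csf1r, Adgre1, S100a8, and S100a9 had none, and the sum of 72.3 and 79.2 CPM, against 68.3 and 67.0 CPM, came almost wholly from Cst3 (65.7 and 71.5 CPM against 61.6 and 62.0 CPM). The 7 dendritic cell genes summed to 2.49 and 1.46 CPM against 1.13 and 2.16 CPM, with Clec9a and Siglech at 0. The 6 NK cell genes summed to 0.696 and 0.324 CPM against 0.205 and 0.333 CPM, with Ncr1, Klrb1c, Nkg7, and Gzma at 0, and the 4 platelet genes, with Pf4, Ppbp, and Gp9 at 0, to 0.0994 and 0.324 CPM against 0.102 and 0.166 CPM. The 5 erythroid genes were led by 1 hemoglobin gene, Hbb-bt, at 241 and 304 CPM against 232 and 270.3 CPM, with Hba-a1 and Hba-a2 at 0, and whether these UMIs lie in or outside the cells was not tested.

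Il10 itself chose the cells, so its values are a description. Of the noncycling cells of library 7, 23.8% were Il10-high (22.5–25.03, Clopper-Pearson), and of library 8, 23.1% (21.6–24.6). They held 63.0% and 61.4% of all Il10 UMIs of the noncycling cells of their libraries. The median Il10-high cell had 7 UMIs in library 7 and 6 in library 8, the interquartile range was 5 to 8 UMIs in both, and the highest cells had 42 and 25 UMIs. At least 10 UMIs were found in 173 and 114 cells. The counts of cells fell off smoothly across the limit: in library 7, 366 cells had 4 UMIs and 276 had 5, and in library 8, 289 had 4 and 235 had 5, with no gap in the counts at the limit. Of 7 genes compared across the limit, Zbtb32 and Ly6d differed in the direction of their calls in both libraries, Lgals3 in the opposite direction in both, and the other 4 in different directions in the libraries. Ly6d was at 346 CPM in the cells with 4 UMIs and 331 CPM in those with 5 in library 7, and at 339 and 246 CPM in library 8. Zbtb32 was at 68.2 CPM in the cells with 4 UMIs and 75.3 CPM in those with 5 in library 7, and at 68.3 and 79.3 CPM in library 8, while Ccl4 was at 442.4 and 274.0 CPM in library 7 and at 238 and 315 CPM in library 8. Il33 was at 146 and 86.7 CPM in library 7 and at 113 and 162 CPM in library 8. Klf2 was at 6.04 and 3.81 CPM and at 6.21 and 8.04 CPM, and Lgals3 at 13.3 and 8.89 CPM and at 13.7 and 11.9 CPM. Id2 was at 151 and 132 CPM in library 7 and at 121 and 130 CPM in library 8.

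Noncycling cells of libraries 5 and 6, processed in the same matrix, had little Il10. The barcodes of libraries 5, 6, 7, and 8 held 47123451, 54703979, 64431719, and 46295477 UMIs in total. Any Il10 UMI was found in 69.1% (67.7–70.5) and 70.0% (68.4–71.6) of the noncycling cells of libraries 7 and 8, and in 6.92% (6.13–7.77) and 6.36% (5.64–7.14) of those of libraries 5 and 6. The median depth was 9833 and 9566.5 UMIs per cell in libraries 7 and 8 and 8434 and 8471.5 in libraries 5 and 6. After each cell was thinned to 5000 UMIs, the shares were 57.2%, 56.8%, 3.83%, and 3.36% in libraries 7, 8, 5, and 6, with 211, 144, 157, and 108 shallower cells left out. The Il10 level over all noncycling cells was 264 and 257 CPM in libraries 7 and 8 and 13.8 and 10.5 CPM in libraries 5 and 6, where 16 and 8 cells reached 5 UMIs.

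**Figure D1:**
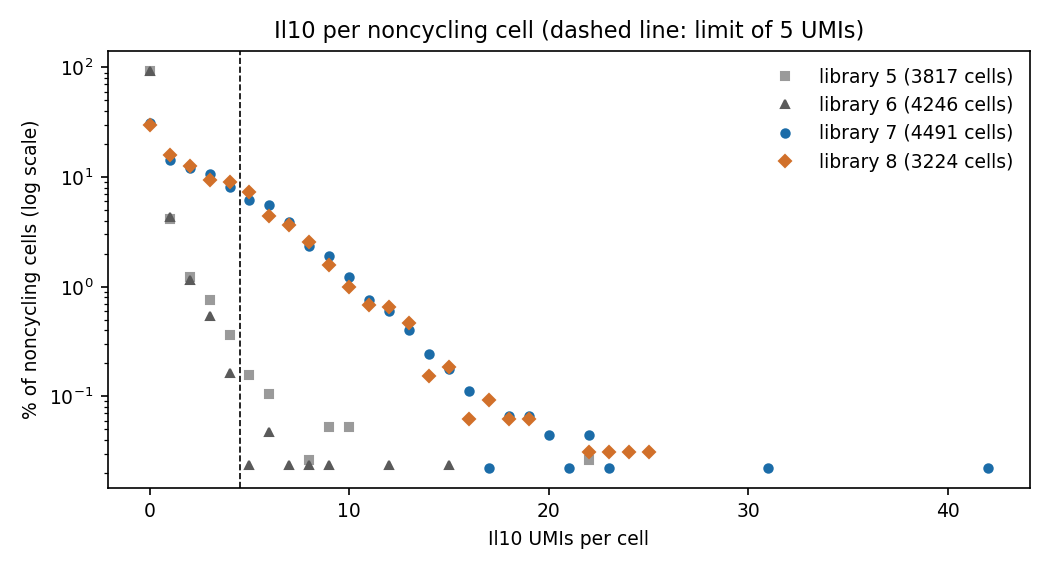
Share of noncycling cells (percent, log scale) at each number of Il10 UMIs per cell (x axis) in libraries 5 to 8; only numbers held by at least 1 cell are drawn. Libraries 7 and 8 fall off along almost the same line past the dashed limit of 5 UMIs, up to 42 and 25 UMIs. Libraries 5 and 6 lie far below them from 1 to 15 UMIs, while the 1 cell of library 5 at 22 UMIs lies near their level.

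Il10-high cells were deeper than Il10-0 cells. Their medians were 11052 and 11223 UMIs, against 9154 and 8843 UMIs in the 1387 and 967 Il10-0 cells. Matching each Il10-high cell to 1 Il10-0 cell within 0.1 log2 units of total UMIs paired 921 cells in library 7 and 579 in library 8, together 82.8% of the Il10-high cells. The 311 cells with no match were the deep ones, with medians of 21370 and 20658 UMIs. The main comparison below leaves them out. The counts without matching include them, and settings with other classes or matching can include some of them. The matched groups had medians of 10558 and 10250 UMIs in library 7 and 10214 and 10160 UMIs in library 8.

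The matched groups were also compared in whole-cell measures, and cells with both light chains were fewer among the Il10-high cells. Il10-high cells had a median of 2644 detected genes against 2559 in library 7, and 2522 against 2492 in library 8. Ribosomal protein genes took a smaller share of their UMIs, 33.7% against 35.1% and 35.5% against 36.9%, and mitochondrial genes a like share, 4.56% against 4.602% and 4.43% against 4.63%. At least 5 UMIs of both kappa and lambda light chain constant genes, which a B cell with 1 antigen receptor should not have, were found in 14.8% (12.5–17.2) of the Il10-high cells and 20.3% (17.7–23.0) of the Il10-0 cells of library 7, and in 15.03% (12.2–18.2) and 19.3% (16.2–22.8) in library 8. No doublet caller was run. The part of these differences, and of the T cell and myeloid genes above, in the results below was not tested beyond the counts without such light chain cells. Libraries 7 and 8 shared 3 barcodes, 1 of them between Il10-high cells, and the border between these libraries in the matrix was weakly marked, while those before libraries 5 and 7 were sharp.

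Il10-high cells carried more mRNA of some genes than matched Il10-0 cells, among them Ccl4, Il33, Zbtb32, Id2, and Cd44, and less of others, among them Klf2, Ltb, Ly6d, H2-DMa, and H2-DMb1. A gene was called where the ratio of CPM was at least 1.5-fold in the same direction in library 7 and in library 8, among 6732 genes with at least 100 UMIs in each library. The genes of the cell definition were left out. By this rule 25 genes (0.371% of those tested) were higher and 11 (0.163%) were lower in Il10-high cells. At a looser limit of 0.32 log2 units, 127 (1.89%) were higher and 63 (0.936%) were lower, so that most transcripts were close to equal in the groups. Over all tested genes, the median ratio was 0.03 log2 units in both libraries. The count of lower genes was the less stable: it was 3 when cells with both light chains were left out, 3 when only cells under 5% mitochondrial UMIs were used, and 25 without matching, where that of higher genes was 40. With totals that left out mitochondrial, ribosomal protein, and immunoglobulin genes, 24 genes were higher and 19 lower.

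**Figure D2:**
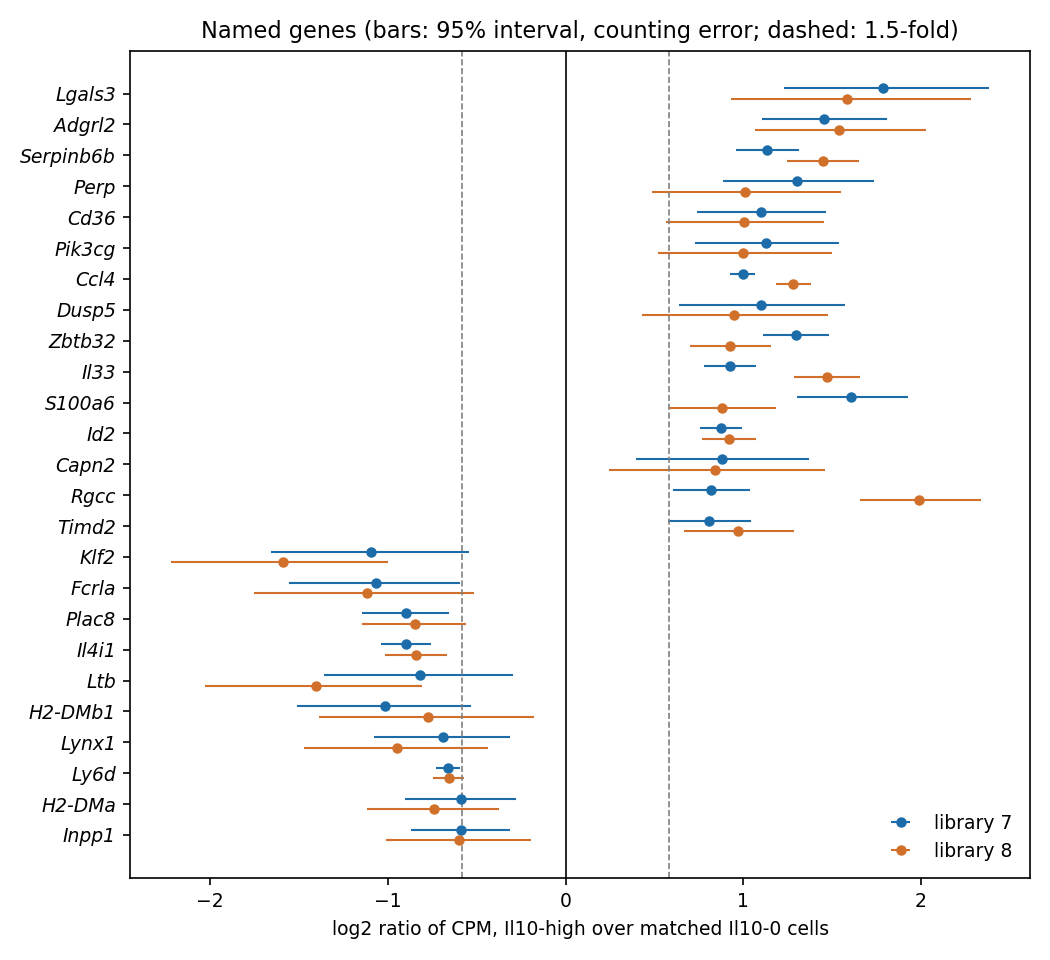
Log2 ratio of CPM between Il10-high and matched Il10-0 cells (x axis) for the 15 higher and the 10 lower genes named by the ranking rule, in library 7 and library 8, with 95% intervals for counting error. All points lie beyond the dashed lines at 1.5-fold, which the call required, and the widest gap between the libraries is that of Rgcc, at 0.82 and 1.99.

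The higher genes are given by the known role of their products, a grouping made by hand after the calls and not tested for enrichment. Of the surface proteins, Cd44, the hyaluronan receptor of activated lymphocytes, was at 425 CPM in Il10-high cells of library 7 and 424 CPM in those of library 8, against 273 and 249 CPM in the Il10-0 cells, which is a log2 ratio of 0.64 (0.57–0.71) and 0.77 (0.67–0.86). At least 1 Cd44 UMI was found in 86.2% and 85.0% of Il10-high cells against 74.6% and 74.96%. The difference in Cd44 was therefore spread over many cells, with a median of 3 UMIs per Il10-high cell and 2 per Il10-0 cell in both libraries. Havcr1, which encodes TIM-1, a phosphatidylserine receptor used as a Breg marker, was at 55.4 and 54.1 CPM against 32.7 and 30.4 CPM, a log2 ratio of 0.76 (0.56–0.97) and 0.83 (0.57–1.10). Timd2, which encodes the related receptor TIM-2, was at 42.9 and 42.8 CPM against 24.5 and 21.8 CPM. Single cells overlapped widely, with a Havcr1 UMI in 36.3% and 32.8% of Il10-high cells against 22.3% and 20.6%, and a Timd2 UMI in 29.1% and 29.9% against 18.9% and 16.9%. Cd36, a scavenger receptor for lipids that marks marginal zone B cells among spleen B cells, was at 20.4 and 21.7 CPM against 9.52 and 10.8 CPM, a log2 ratio of 1.10 (0.74–1.47) and 1.01 (0.57–1.46). Adgrl2, which encodes the adhesion receptor latrophilin 2, was at 26.4 and 24.1 CPM against 9.62 and 8.32 CPM, a log2 ratio of 1.45 and 1.54. Alcam, a ligand of the T cell protein CD6, was at 35.3 and 30.0 CPM against 21.0 and 18.5 CPM. Perp, a membrane protein of cell junctions, Shisa3, and Ldlrad3 were called as well, at log2 ratios from 0.60 to 1.31.

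Of the genes of secreted factors, Ccl4 and Il33 had most of their UMIs in few cells. In the list of other cytokines, Il33 was the only higher call and Ltb the only lower call of 6 genes tested. Over all genes tested, 0.371% were called higher and 0.163% lower. Ccl4, a chemokine that attracts T cells and monocytes, was the most abundant called gene in the Il10-high cells, though not in the Il10-0 cells, at 520.2 and 488 CPM against 261 and 200.7 CPM, a log2 ratio of 1.00 (0.93–1.07) and 1.28 (1.19–1.38). The median cell of every group had no Ccl4 UMI. In the Il10-high cells 29.2% and 28.3% had at least 1, against 17.2% and 16.9%, and the top 5% of Il10-high cells held 76.7% and 72.7% of its UMIs. Single cells reached 303 and 211 UMIs, so most Ccl4 UMIs came from a small set of very high cells. The same held for the Il10-0 cells, where the top 5% held 92.3% and 88.3% and single cells reached 249 and 212 UMIs. The intervals of the Ccl4 ratio leave out this spread between cells. Il33, an IL-1 family cytokine released from damaged cells, was at 112 and 149 CPM against 59.2 and 53.7 CPM, a log2 ratio of 0.93 (0.78–1.07) and 1.47 (1.29–1.66). It was seen in 22.8% and 19.7% of Il10-high cells against 11.0% and 9.84%. A single Il10-0 cell of library 7 had 110 UMIs, and a single Il10-high cell of library 8 had 115. Without the 1% of cells with the most UMIs of the gene in each group, the mean log2 ratio over the libraries went from 1.20 to 1.82 for Il33 and from 1.14 to 1.74 for Ccl4. Il1rn, the secreted antagonist of the IL-1 receptor, was at 56.6 and 45.5 CPM against 33.99 and 25.8 CPM. With weighted bins of total UMIs, the mean log2 ratio of Il1rn was 0.55, under 1.5-fold, against 0.78 as matched. Lgals3, which encodes the sugar-binding protein galectin-3, had the largest smaller ratio of all called genes, at 12.0 and 13.0 CPM against 3.48 and 4.32 CPM, a log2 ratio of 1.79 (1.23–2.38) and 1.58 (0.93–2.28), on 121 and 80 UMIs against 34 and 26. Gh, the growth hormone gene, was called at 15.1 and 16.2 CPM against 7.37 and 9.48 CPM.

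Il19 was the only called gene among the listed neighbors of Il10. It encodes a cytokine of the IL-10 family and lies on the opposite strand at chr1:130932656-130940115, 79.7 kb before Il10 at chr1:131019845-131024974 (GRCm38, GENCODE vM21). Il19 was at 35.2 and 27.9 CPM in Il10-high cells against 21.5 and 15.3 CPM, a log2 ratio of 0.71 (0.46–0.96) and 0.87 (0.49–1.246). Only 8.58% and 7.94% of Il10-high cells and 5.10% and 4.15% of Il10-0 cells had a UMI of it, and in cells with at least 10 Il10 UMIs its mean log2 ratio was -0.80, with -1.58 in library 7 and -0.02 (-0.88 to 0.84) in library 8. With weighted bins of total UMIs in place of cell by cell matching, the mean was 0.39, against 0.79 as matched, and thus under 1.5-fold. Of 11 neighbors of Il10, 6 had enough UMIs to be tested and 1 was called higher, against 0.371% of all genes tested. Mapkapk2, a kinase of the p38 pathway that stabilizes cytokine mRNAs, lies 28.7 kb past the other end of Il10 and was close to equal, at a log2 ratio of 0.22 in both libraries. Il24, another IL-10 family cytokine, had 24 and 25 UMIs in Il10-high cells and 13 and 3 in Il10-0 cells, under the limit for a call, and Il20 had none.

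Several called genes encode regulators. Irf4, a dose-dependent factor of B cell activation and plasma cell fate, was at 57.8 and 52.5 CPM against 34.3 and 32.8 CPM, a log2 ratio of 0.75 (0.56–0.95) and 0.68 (0.42–0.94), and its mean was 0.55, under 1.5-fold, without cells with both light chains. Zbtb32, a repressor that limits B cell memory responses, was at 84.8 and 77.8 CPM against 34.5 and 40.9 CPM, a log2 ratio of 1.30 (1.11–1.48) and 0.93 (0.70–1.15), with a UMI in 42.5% and 39.4% of Il10-high cells against 22.9% and 25.4%. Id2, an inhibitor of the E proteins that hold B cell identity, was at 168 and 169 CPM against 91.7 and 89.0 CPM, a log2 ratio of 0.87 (0.76–0.99) and 0.92 (0.77–1.07). Dusp5, a nuclear phosphatase that switches off ERK, had a log2 ratio of 1.10 and 0.95, and Gadd45b, a stress gene induced by NF-kB, of 0.68 and 0.72. In cells with at least 10 Il10 UMIs the mean of Dusp5 was 0.44, under 1.5-fold, with 0.78 in library 7 and 0.09 in library 8. Pik3cg, the catalytic subunit of PI3-kinase gamma, was at 17.01 and 18.0 CPM against 7.78 and 8.98 CPM. Rgcc, a regulator of the cell cycle, differed most between the libraries, at 49.1 and 60.1 CPM against 27.8 and 15.1 CPM. The called genes Serpinb6b, a protease inhibitor, S100a6, a calcium-binding protein, and Capn2, a calcium-dependent protease, had log2 ratios from 0.84 to 1.61.

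Of the 10 named genes lower in Il10-high cells, 8 were at higher levels in libraries 5 and 6 than in the Il10-0 cells, and Il4i1 and Inpp1 were not. Klf2, a factor that keeps lymphocytes quiescent and recirculating, was at 4.18 and 5.18 CPM in Il10-high cells against 8.91 and 15.6 CPM in Il10-0 cells, a log2 ratio of -1.09 and -1.59 on 42 and 32 UMIs against 87 and 94, and at 449.7 and 486 CPM in the noncycling cells of libraries 5 and 6. Ltb, a membrane lymphotoxin that organizes lymphoid tissue, was at 4.87 and 5.35 CPM against 8.60 and 14.1 CPM, and at 459.7 and 496 CPM in libraries 5 and 6. Ly6d, a surface protein of B lineage cells, was the only abundant gene of the group, at 272 and 288 CPM against 429.5 and 454 CPM, a log2 ratio of -0.66 in both libraries, and at 5279 and 5262 CPM in libraries 5 and 6. The Il10-0 cells of libraries 7 and 8 were thus far nearer to the Il10-high cells than to the cells of libraries 5 and 6 in all 3 genes. Plac8, at 21.2 and 25.1 CPM against 39.5 and 45.2 CPM, Fcrla, an Fc receptor-like protein inside B cells, at 5.57 and 5.51 CPM against 11.7 and 12.0 CPM, and Lynx1, at 9.45 and 8.10 CPM against 15.3 and 15.6 CPM, followed the same order, at 299.7 and 324 CPM, 167 and 163 CPM, and 114 and 121 CPM in libraries 5 and 6. Il4i1, an enzyme that degrades phenylalanine and restrains T cells, was at 64.7 and 68.4 CPM against 121 and 123 CPM, and at 104 and 113 CPM in libraries 5 and 6. Inpp1, an enzyme of inositol phosphate breakdown, and BC028528 had log2 ratios between -0.59 and -0.62. Most of these ratios rest on few UMIs, between 32 and 213 in the Il10-high cells of a library for Klf2, Fcrla, Ltb, H2-DMb1, Lynx1, and Plac8. Without cells with both light chains, which were more frequent among the Il10-0 cells, the mean log2 ratio over the libraries was -0.39 for Ltb, where it was -1.11 with them, -0.47 for Ly6d, -0.49 for BC028528, and -0.54 for Lynx1, all under 1.5-fold. With only cells under 5% mitochondrial UMIs, that of Ltb was -0.44.

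**Figure D3:**
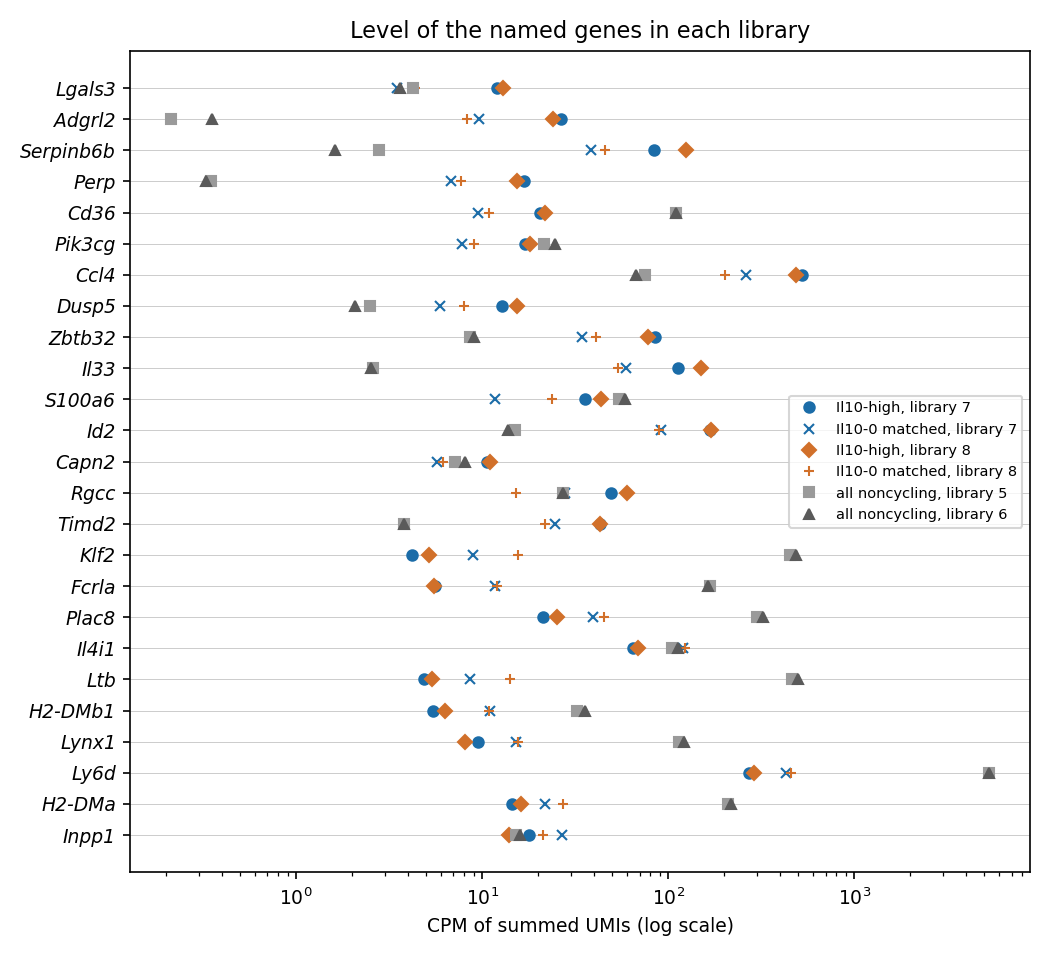
CPM of summed UMIs (x axis, log scale) of the 25 named genes in Il10-high and matched Il10-0 cells of libraries 7 and 8 and in all noncycling cells of libraries 5 and 6. Ly6d, Ltb, Klf2, Plac8, and Fcrla lie far higher in libraries 5 and 6, whereas Adgrl2, Perp, Serpinb6b, Il33, and Timd2 lie far lower there.

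The stretches before the start sites of 3 called genes are shown because Il19 is a neighbor of Il10, Irf4 a higher and Klf2 a lower transcription factor, and no entry was found for Il10 itself. They are RefSeq sequences of GRCm38.p6, read 5′ to 3′ on the strand of the gene and ended before any base that GENCODE counts as the gene, at chr1:130940116-130940365 (minus strand), chr13:30748983-30749225 (plus), and chr8:72318812-72319032 (plus). Capitals mark matches on either strand to NFAT GGAAA and to the kappa B motif of NF-kB, the only motifs of those searched that were found in them.
Il19: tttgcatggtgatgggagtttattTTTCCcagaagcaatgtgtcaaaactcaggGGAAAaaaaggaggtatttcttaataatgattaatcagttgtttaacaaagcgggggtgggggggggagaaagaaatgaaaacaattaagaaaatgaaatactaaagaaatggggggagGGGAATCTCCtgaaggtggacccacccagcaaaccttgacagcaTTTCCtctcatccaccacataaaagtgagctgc
Irf4: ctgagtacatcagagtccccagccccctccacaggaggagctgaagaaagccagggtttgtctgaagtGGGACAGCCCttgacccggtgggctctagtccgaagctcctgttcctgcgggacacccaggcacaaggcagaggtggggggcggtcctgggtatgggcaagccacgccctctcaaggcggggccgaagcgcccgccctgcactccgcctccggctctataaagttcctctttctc
Klf2: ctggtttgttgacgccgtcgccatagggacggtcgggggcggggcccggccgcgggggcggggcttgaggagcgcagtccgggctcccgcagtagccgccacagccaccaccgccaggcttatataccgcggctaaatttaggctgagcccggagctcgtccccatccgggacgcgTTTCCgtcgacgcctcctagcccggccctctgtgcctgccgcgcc
In the full windows, from 250 bases before to 50 after the start, 22 of the 25 higher genes and 9 of the 11 lower genes had an entry. At least 1 kappa B motif was found in 7 of the 22 higher genes (31.8%), Il19, Irf4, Lgals3, Cd36, Dusp5, Il1rn, and Rgcc, and in 3 of the 9 lower genes (33.3%), against 22.9% of 27025 genes with an entry. GGAAA, which is short and common, was found in 72.7% of the higher genes and in 100% of those lower, against 64.4%, and AP-1 TGANTCA in 3 of 22 (Capn2, Havcr1, and Il1rn) and in 2 of 9 (H2-DMa and H2-DMb1) against 8.97%. The CRE TGACGTCA was in none of either, against 2.03%, CACGTG in 2 of 22 and none of 9 against 8.09%, and the MAF motif TGCTGAC in Timd2 and Zbtb32 and in none of 9 against 5.28%. A match says only that the letters are in the window.

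The comparison with libraries 5 and 6 did not follow 1 order for the higher genes. Adgrl2, Perp, Il33, Serpinb6b, and Timd2 were between 0.213 and 3.796 CPM in libraries 5 and 6, so that Il10-high cells were highest, Il10-0 cells lower, and libraries 5 and 6 lowest. Cd36, by contrast, was at 110.3 CPM in both libraries 5 and 6, far above the 20.4 and 21.7 CPM of Il10-high cells, and S100a6, at 54.1 and 58.3 CPM, was above the 35.6 and 43.4 CPM of Il10-high cells. The 24 cells of libraries 5 and 6 with at least 5 Il10 UMIs had no UMI of Il33, which allows up to 9.55 and 17.9 CPM at this depth (3 counts), and carried Ccl4 at 1779 and 1695 CPM. Whether these few cells and the Il10-high cells of libraries 7 and 8 are of 1 kind was not tested.

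Of the 7 tested genes of the class II list, 2 were called, both lower, against 0.163% of all genes tested. The class II chains that bind peptide were close to equal, with H2-Aa at a log2 ratio of 0.17 and 0.15, H2-Eb1 at 0.20 and 0.21, H2-Ab1 at 0.06 and -0.02, and the invariant chain Cd74 at 0.14 and 0.10. The called genes encode the chains of H2-DM, which loads and edits peptide. H2-DMa was at 14.4 and 16.2 CPM against 21.7 and 27.1 CPM, a log2 ratio of -0.59 (-0.90 to -0.28) and -0.74 (-1.12 to -0.37), and H2-DMb1 was at 5.47 and 6.32 CPM against 11.1 and 10.8 CPM, a log2 ratio of -1.02 and -0.77. In cells with at least 10 Il10 UMIs, H2-DMb1 was at -1.50 in library 7 and 0.81 in library 8, and H2-DMa at -0.58 and -0.14. With weighted bins of total UMIs the mean log2 ratio of H2-DMa was -0.49, under 1.5-fold. H2-Ob, a chain of the protein that restrains H2-DM, was not called. It was at 33.2 and 30.6 CPM against 41.8 and 45.6 CPM. The remaining genes of the list of 10 had too few UMIs for a call. Among these, Ciita, the master activator of class II genes, had 8 and 3 UMIs in Il10-high cells against 42 and 29 in Il10-0 cells, and H2-DMb2 had 45 and 20 UMIs against 87 and 65. Of 8 class I genes tested, none passed either limit, with medians of -0.08 and -0.04. Over all genes tested, the looser limit was passed by 1.89% upward and 0.936% downward.

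Of the 7 tested class switch genes, which serve DNA repair in general, none passed the looser limit. That limit was passed by 1.89% of all genes tested upward and 0.936% downward. Among heavy chain constant genes, Ighd, the IgD chain of naive B cells, was at 35.1 and 31.4 CPM against 48.8 and 47.1 CPM, a log2 ratio of -0.48 and -0.58, and Ighm was close to equal at -0.11 and 0.17. Ighg2b, the only switched constant gene tested, was at -0.23 and -0.29. Ighg1, Ighg3, Igha, and Ighe had at most 6 UMIs in any group.

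The B cell identity list also holds Id2 and Id3, inhibitors of the E proteins that hold B cell identity. Of 17 genes tested, most did not pass 1.5-fold, Id2 was called higher, and Ly6d was called lower. The 2 genes past the looser limit upward were these inhibitors, and the 4 downward were Ly6d, Irf8, Cd72, and Cd79b. The medians were 0.01 and -0.15. Over all genes tested, 0.371% were called higher and 0.163% lower, and 1.89% passed the looser limit upward and 0.936% downward. Irf8, a factor of B cell and germinal center identity that is often opposed to IRF4, was at 163 and 157 CPM against 251 and 235 CPM, a log2 ratio of -0.62 (-0.71 to -0.53) and -0.58 (-0.70 to -0.47), just at the limit in library 8 and not called. Cd72, an inhibitory coreceptor, had a log2 ratio of -0.56 and -0.85, and Cd79b, a signaling chain of the antigen receptor, of -0.49 and -0.44, while its partner Cd79a was at 0.20 and 0.25. Id3, the relative of Id2, had a ratio of 0.53 and 0.63. The core factors Pax5 (0.01 and -0.09), Ebf1 (0.23 and 0.20), and Bach2 (0.05 and -0.15) were close to equal. In the plasma cell list, Irf4 alone of 8 tested genes was called (higher, as were 0.371% of all genes tested). Xbp1, the factor of the secretory program, had log2 ratios of 0.01 and -0.07, Mzb1, an endoplasmic reticulum protein of antibody-secreting cells, of -0.69 and -0.40, and Prdm1, which encodes the plasma cell factor BLIMP-1, had 12 and 5 UMIs in Il10-high cells against 11 and 3. Since cells with 5 or more Jchain UMIs were left out by definition, cells of a full plasma cell program were not compared.

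In a list of genes tied to Bregs or to B cell activation, a part was higher and a part was hardly detected. The list was chosen with earlier results of these data known, so its share is no test of Breg markers. Of 25 genes in the list, 12 were tested, 3 were called (Cd44, Havcr1, and Timd2), all higher, and 6 passed the looser limit upward and 1 downward. Of the 3 called, Havcr1 is used as a Breg marker, while Cd44 marks activated lymphocytes and Timd2 encodes a relative of TIM-1. Over all genes tested, 0.371% were called higher, and 1.89% passed the looser limit upward and 0.936% downward. The medians of the list were 0.29 and 0.42, against 0.03 over all genes in both libraries. Cd200, a ligand that restrains myeloid cells, had a log2 ratio of 0.40 and 0.66, Cd274, which encodes PD-L1, of 0.41 and 0.50, and Il2ra, which encodes CD25, of 0.34 and 0.54. Cd86, a costimulatory ligand, was at 112 and 109 CPM against 94.9 and 88.5 CPM, under the looser limit in both libraries. Cd38, by contrast, was at 124 and 112 CPM against 167 and 146 CPM, a log2 ratio of -0.43 and -0.37. Cd9, a tetraspanin reported on mouse IL-10-producing B cells, had 85 and 69 UMIs against 43 and 19, under the limit for a call in library 8. Cd1d1 and Cd5, which mark the classical B10 cell, were at 3 and 1 UMIs and at 0 UMIs in Il10-high cells, and Gzmb was at 0 in all groups. A count of 0 over the Il10-high cells allows up to 0.298 and 0.486 CPM, taken as 3 counts.

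Genes of the marginal zone and B-1 list split as well. Of 8 tested, Zbtb32, S100a6, and Cd36 were called higher and Plac8 lower, against 0.371% and 0.163% of all genes tested, and the medians were 0.16 and 0.15, against 0.03 over all genes. Cr2, the complement receptor CD21 of marginal zone cells, was at 14.8 and 12.5 CPM against 13.8 and 14.0 CPM, and Dtx1 and Notch2, genes of the Notch signal that forms these cells, were not higher in both libraries. Of 5 tested follicular B cell genes, none was higher at the looser limit in both libraries, and Klf2 and Ighd were lower by that limit, with medians of -0.14 and -0.29. Over all genes tested, 1.89% passed that limit upward and 0.936% downward.

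Genes of the Il10 receptor and of factors known to induce Il10 were mostly alike in both groups, with the exception of Irf4. Of 12 tested, Irf4 was called higher, against 0.371% of all genes tested. The medians were -0.002 and -0.11, against 0.03 over all genes in both libraries. Il10ra was at 12.1 and 10.4 CPM against 12.4 and 11.1 CPM, Il10rb had log2 ratios of 0.14 and 0.07, and Stat3, which carries the receptor's signal, of -0.10 and -0.18. Fli1, a factor of the ETS family, was the 1 gene lower by the looser limit in both libraries, at -0.59 and -0.38. Over all genes tested, 0.936% were lower by that limit. Maf, which drives Il10 in T cells and macrophages, had 13 and 3 UMIs in Il10-high cells against 16 and 6, and Ahr, a ligand-dependent factor, 17 and 15 against 7 and 5. The UMIs of Maf and Ahr were too few for a call.

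Of the signaling lists, those of MAPK feedback, IL-2 and STAT5, EGR, and NF-kB feedback leaned upward in Il10-high cells without passing 1.5-fold in most genes. Of 10 tested genes of the IL-2 receptor, STAT5, and SOCS list, 9 had ratios above 0 in both libraries, against 40.3% of all genes tested. The looser limit was passed upward by 3 of them, against 1.89% of all genes tested, and none was called. Socs3, an inhibitor of cytokine receptors that IL-10 signaling also induces, was at 198 and 188 CPM against 143 and 132 CPM, a log2 ratio of 0.47 and 0.51, and the survival kinase Pim1 was at 0.33 and 0.48. Of 15 tested NF-kB genes, 12 were above 0 in both libraries. Tnfaip3, the deubiquitinase A20 that ends NF-kB signaling, was at 45.8 and 46.8 CPM against 30.9 and 31.3 CPM, a log2 ratio of 0.57 and 0.58, just under the limit. Rel had ratios of 0.39 and 0.26, and Nfkbiz, a cofactor for cytokine genes, of 0.37 and 0.38, while Nfkb1 was at 0.02 and 0.00. In the MAPK feedback list, Dusp5 was called and Dusp2 was at 517 and 491 CPM against 366 and 307 CPM, a log2 ratio of 0.50 and 0.68. Egr1 and Egr2, immediate early factors of antigen receptor and PMA signals, had ratios of 0.41 and 0.82 and of 0.34 and 0.82, apart between the libraries. The AP-1 and MAF list had medians of 0.00 and -0.01 and the calcineurin and NFAT list of -0.09 and 0.07. Of their 6 and 10 tested genes none was past the looser limit in both libraries. That limit was passed by 1.89% of all genes tested upward and 0.936% downward. Fosl1, an AP-1 subunit with too few UMIs for a call, had 92 and 40 UMIs against 58 and 24. Jund, another subunit, was lower in both libraries, at -0.26.

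**Figure D4:**
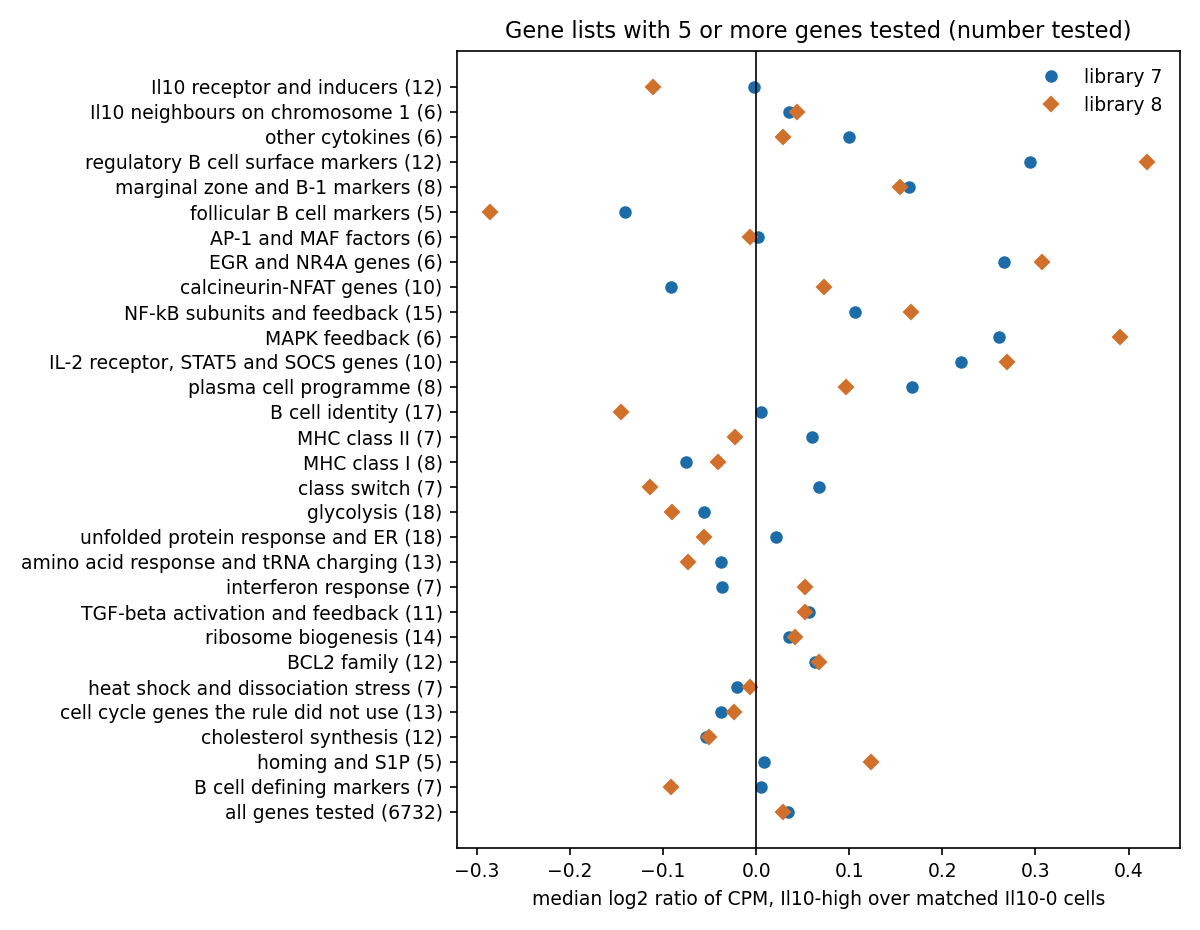
Median log2 ratio of CPM between Il10-high and matched Il10-0 cells (x axis) for each gene list with at least 5 genes tested, in library 7 and library 8, with the number tested in brackets. The regulatory B cell markers, MAPK feedback, EGR, and IL-2 lists lie above 0.2 in both libraries, and the metabolic and stress lists lie within 0.1 of 0.

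Among other cytokines, Il33 and Il6 passed the looser limit upward and Ltb and Il12a downward, of 6 genes tested. Over all genes tested, 1.89% passed it upward and 0.936% downward. Il6 was at 23.5 and 24.1 CPM against 14.6 and 17.3 CPM, a log2 ratio of 0.68 and 0.48, and Il12a, a subunit of IL-12 and IL-35, was at 5.67 and 8.10 CPM against 11.4 and 11.0 CPM, a log2 ratio of -1.004 and -0.44. Tnf was at 0.07 and -0.16. Ebi3, the partner of Il12a in IL-35, had 32 and 17 UMIs against 19 and 35, in opposite order in the libraries. Tgfb1 was at 90.6 and 92.2 CPM against 82.8 and 79.0 CPM, a log2 ratio of 0.13 and 0.22, under the looser limit. The genes of 2 proteins that handle it, Furin, the protease that cuts the precursor, and Lrrc32, which encodes GARP, the surface anchor of latent TGF-β, had ratios of 0.68 and 0.52 and of 0.59 and 0.37. Of 11 TGF-β genes tested, none was called, and 2, Furin and Lrrc32, passed the looser limit upward. Ccl3, the neighbor of Ccl4 at 13.2 kb, was at 83.7 and 86.0 CPM against 63.0 and 48.7 CPM, a log2 ratio of 0.41 and 0.82. Ccl22, Ccl17, and Il12b had no UMI in any group.

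Housekeeping and stress lists had medians close to 0, as had all genes tested. No gene passed 1.5-fold among 18 tested genes of glycolysis, 18 of the unfolded protein response, 13 of amino acid response and tRNA charging, 14 of ribosome biogenesis, 12 of cholesterol synthesis, 12 of the BCL2 family, 7 of the interferon response, 7 of heat shock and dissociation stress, and 13 of cell cycle genes that the definition did not use. In these lists 2 genes passed the looser limit, both lower. Over all genes tested, 0.371% were called higher and 0.163% lower. The looser limit was passed by 1.89% upward and 0.936% downward, so these low counts are near those shares. They were Pdia4, a folding enzyme, at -0.37 and -0.42, and Atf5, a factor of the amino acid response, at -0.51 and -0.54. The medians of these lists lay between -0.09 and 0.07. Of 4 light chain constant genes and 5 homing genes tested, Klf2 alone was called (lower, as were 0.163% of all genes tested). None of 11 TNF superfamily ligands had enough UMIs to be tested.

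The ratios of the named genes were also taken by the number of Il10 UMIs per cell. The genes were chosen on the cells with 5 or more UMIs, so a smaller ratio in the lower classes is in part given by that choice. Cells of 4 classes were matched to Il10-0 cells in the same way, and the classes share these comparison cells. For all 15 named higher genes the mean log2 ratio over the libraries was above 0 in the class with 1 to 2 UMIs and larger in the class with at least 10. At 1 to 2 UMIs, however, S100a6 was at -0.58 (-0.93 to -0.24) and Capn2 at -0.20 in library 8, and Ccl4 was below 0 in library 7. In 2 of the 15, Cd36 and Ccl4, every step from class to class went up in both libraries, and the same held for Irf4 and Cd44. The mean log2 ratio of Ccl4 was 0.24 (-0.16 in library 7 and 0.65 in library 8) at 1 to 2 UMIs, 0.88 at 3 to 4, 1.14 at 5 to 9, and 1.74 at 10 or more. That of Irf4 was 0.28, 0.49, 0.68, and 1.13. Lgals3, Dusp5, Zbtb32, Id2, Capn2, and Rgcc had their highest mean at 5 to 9 UMIs. For all 10 named lower genes the mean ratio was below 0 at 1 to 2 UMIs, although Ltb was at 0.04 in library 7, and in 6 of them it was further below at 10 or more. Klf2 went from -0.81 to -1.30 at 5 to 9 UMIs and was at -0.53 at 10 or more, where the libraries differed (-1.61 and 0.56) and only 143 and 84 cells were matched.

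**Figure D5:**
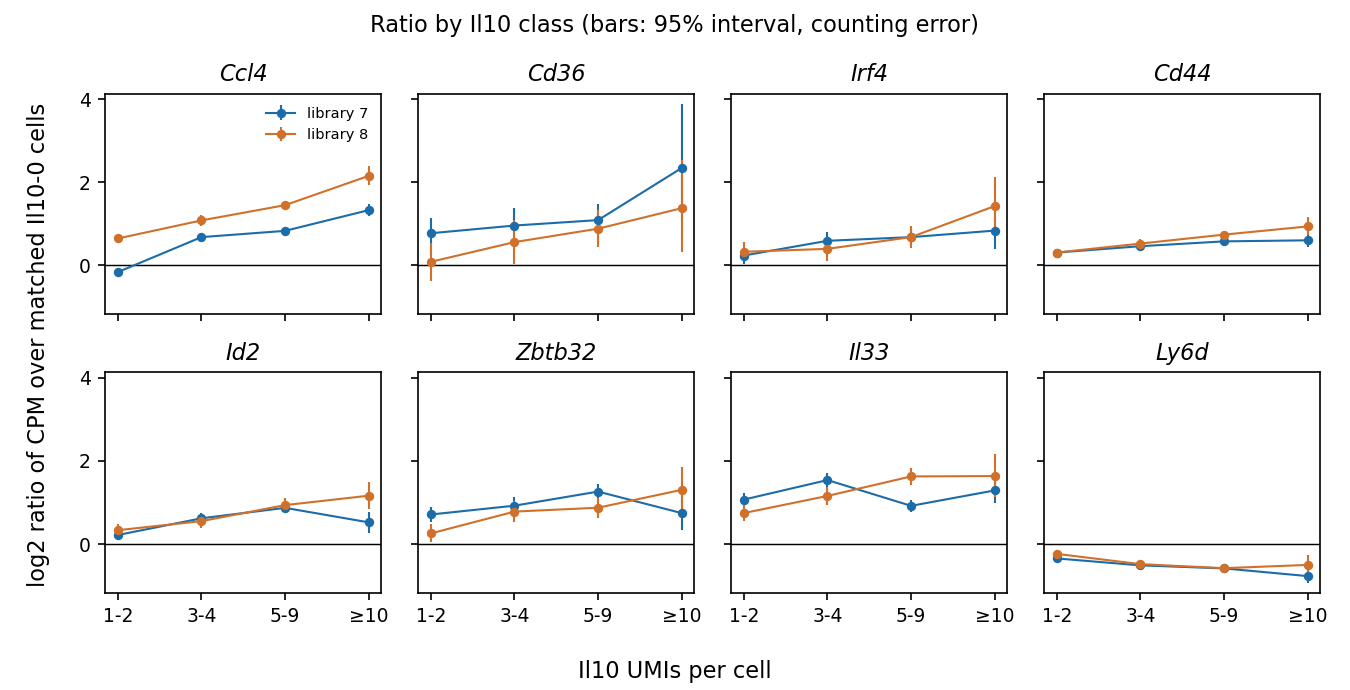
Log2 ratio of CPM over matched Il10-0 cells (y axis) for 8 genes in 4 classes of Il10 UMIs per cell (x axis), in library 7 and library 8, with 95% intervals for counting error. Ccl4, Cd36, Irf4, and Cd44 step up from class to class in both libraries, Il33 does so in library 8 only, and Ly6d stays below 0 throughout.

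S-phase cells, which the definition left out, gave a second set of cells for the same comparison. These cells had at least 0.1% of their UMIs on Mcm2 to Mcm7 and Gins2 and met the other limits. Of 777 such cells in library 7 and 492 in library 8, 364 had at least 5 Il10 UMIs, and 174 and 90 of them were matched to S-phase cells without Il10. Of 2606 genes with enough UMIs, 5 (0.192%) were higher and 3 (0.115%) lower by 1.5-fold in both libraries. Of the 15 named higher genes, 5 were tested there, all 5 had ratios above 0 in both libraries, as had 794 of the 2606 genes, and 2, Serpinb6b and Il33, were called. Of all 25 called higher genes, 9 were tested, 8 had ratios above 0 in both libraries, and 3 were called. Serpinb6b had a log2 ratio of 1.11 and 0.95 in S-phase cells. Il33 had 3.41 and 1.27, on 428 and 287 UMIs against 38 and 113. Id2 was at 0.95 and 0.29, and Zbtb32 at 1.18 and 0.36. Of the 10 named lower genes, 2 were tested, Il4i1 (-0.50 and -0.81) and Ly6d (-0.04 and -1.11), both below 0, as were 706 of the 2606 genes, and neither called. Il19 went in opposite directions, with 63 UMIs against 6 in library 7 and 5 against 24 in library 8. No difference between S-phase and noncycling cells was tested.

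Among themselves, Il10-high cells differed most in immunoglobulin genes, in Fth1, and in a few secreted factors. After thinning to 5000 UMIs, the variance over the mean of UMIs per cell was largest for the light chain genes Igkc (104 and 58.6 in libraries 7 and 8) and Iglc1 (58.2 and 214), against a median of 1.01 over 4434 genes. Fth1, which encodes the heavy chain of the iron store ferritin, followed at 51.8 and 52.2, Spp1, which encodes osteopontin, at 49.7 and 50.1, Ccl4 at 47.5 and 31.4, and Wfdc17, a secreted antiprotease-like protein, at 26.0 and 28.0. Spp1 and Ccl4 vary to a like extent in Il10-0 cells, at 46.0 and 43.7 and at 47.8 and 29.8. In the Il10-0 cells Igkc was at 84.9 and 51.8, Iglc1 at 23.0 and 127, Fth1 at 59.5 and 56.2, and Wfdc17 at 18.2 and 27.0. The spread of these genes was thus present with and without Il10. Spp1 was at 1349 and 1241 CPM in Il10-high cells against 971 and 921 CPM, a log2 ratio of 0.47 and 0.43, and Fth1 at -0.02 and 0.07.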

How the data were processed

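B cells were profiled with Chromium Single Cell 3ʹ v3. Per the labels and the methods, the authors ran bcl2fastq and Cell Ranger 3.1.0 on mm10 (Ensembl 93) and combined and normalized the libraries with Cell Ranger aggr, whose usual mode thins deeper libraries (the mode is not given in the sources used here). The deposited values are whole UMI counts per gene and cell, in 1 matrix of 35989 columns and 31053 genes. The matrix names no cells, and the 19920 deposited barcodes were taken, in order, as its last columns, an assumption that rests on shifts in expression where libraries 5 and 7 would begin (percentiles 99.3 and 100 of all columns), while the starts of library 6 (52.4) and library 8 (91.8) were not or weakly marked. The first 16069 columns were not used. Members, lists, and limits were chosen with earlier results of these data known. Il10-high cells were matched 1:1 to Il10-0 cells of the same library, deepest first, within 0.1 log2 units. UMIs were summed and divided by each group's total (CPM), with exact Poisson intervals, exact conditional intervals for ratios, and Clopper-Pearson intervals for shares, all covering counting error only. Named genes were up to 15 higher and 15 lower called genes, ranked by the smaller of the log2 ratios of the 2 libraries (10 lower genes were ranked, since BC028528 was counted but left unranked as a gene model with no name), and genes of the lists, while Spp1, Fth1, and Slpi and the called genes past the ranking were named after their values were seen. The cells are 1 pooled sample, so no test was run. Scripts were tested on simulated data. Python 3.11.15, numpy 2.4.6, pandas 2.3.3, scipy 1.17.1, and matplotlib 3.10.9 were used. Alternatives covered the Il10 limits, matching, minimum UMIs, fold, scaling, and cell filters. Results that need certain withheld items are not reported here.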

Additional observations from a re-analysis of the deposited data

Results flagged for a closer look

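Ccl3, a chemokine gene next to Ccl4, differed in direction between noncycling and S-phase cells. In noncycling cells its log2 ratio of Il10-high over Il10-0 cells was 0.41 in library 7 and 0.82 in library 8. In S-phase cells it was -0.07 (167 UMIs against 166) and -0.64 (56 against 83), a mean of -0.36. It was picked out because the ratios of both libraries were above 0 in noncycling cells and below 0 in S-phase cells. In library 7 the S-phase ratio lay within counting error of 0 (-0.39 to 0.25), so the opposite direction rests on library 8 alone (-1.16 to -0.14). These intervals leave out variation between cells, and the difference was not tested.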

How the results depend on the processing

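No paired analysis was possible because the cells could not be assigned to the study's samples and no test was run. The counts below are genes higher and lower by 1.5-fold in both libraries, 25 and 11 as reported, and the cause of each change was not tested. They were 28 and 17 with Il10 at 3 UMIs or more, 15 and 1 with 10 or more (2628 genes tested, 7 and 0 of the genes shared with those reported), 40 and 25 without matching, 24 and 19 both without mitochondrial, ribosomal protein, and immunoglobulin genes in the total and when centred on the median gene, 27 and 3 without cells with kappa and lambda (20 and 2 shared), and 22 and 3 under 5% mitochondrial UMIs (17 and 2 shared). With at least 20 UMIs they were 73 and 59, with no minimum 172 and 172, at 0.32 log2 units 127 and 63, and at 2-fold 6 and 2. In a single library they ranged from 73 to 91 and from 50 to 54. In the other settings of matching and cell filters they stayed within 1.5 times the reported counts, but with weighted bins only 18 and 3 of the genes were shared. Of settings chosen after seeing the data, leaving out the 1% of cells with the most UMIs of each gene gave 36 and 16, and leaving out 100 columns on each side of the border of libraries 7 and 8 gave 27 and 8. The share of Il10-high cells, 23.5%, was 42.1% with 3 UMIs or more, 3.72% with 10 or more, and 21.7% without the 5% deepest cells, and from 23.1% to 23.8% in single libraries. Of the 36 called genes, 35 kept their sign in all 15 alternatives, a milder measure than being called again, and Il19 was at -0.80 with Il10 at 10 or more (-1.58 in library 7 and -0.02 in library 8).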

Other observations

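Slpi, a secreted protease inhibitor, was the 1 gene past 1.5-fold in opposite directions in the libraries, at 23.0 CPM in Il10-high against 38.4 CPM in Il10-0 cells of library 7 and at 19.6 against 13.0 CPM in library 8. Cd69, an early activation marker, was at 53.9 CPM against 88.1 CPM in library 7 and at 47.5 against 54.1 CPM in library 8. Il7r, which encodes a chain of the IL-7 receptor, had 80 and 51 UMIs in Il10-high cells against 25 and 19 in Il10-0 cells, and Lck 23 and 13 against 43 and 35, all under the minimum for a call in at least 1 library. Blk, a B cell kinase, had 24 and 19 UMIs against 56 and 39.

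In the 16 cells of library 5 and 8 cells of library 6 with at least 5 Il10 UMIs, Cd44 was at 363 and 399.9 CPM, against 123 and 124.8 CPM in the Il10-0 cells of these libraries. Klf2 was at 226 and 173 CPM in the former and at 464.5 and 499 CPM in the latter. Ly6d was at 7178 and 4966 CPM against 5187 and 5177 CPM. Id2, on 11 and 1 UMIs, was at 35.0 and 5.97 CPM against 14.4 and 13.3 CPM. Zbtb32, on 3 and 6 UMIs, was at 9.55 and 35.8 CPM against 8.60 and 8.78 CPM. These groups were not matched on depth, and their median cells had 15678.5 and 17621.5 UMIs against 8294 and 8341.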
